A study of Mus musculus with 18 samples.

Results

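The 10 genes described here carry sterol sensing, sterol export and cholesterol esterification in liver: the liver X receptors *Nr1h2* and *Nr1h3*, the transporters *Abca1*, *Abcg1*, *Abcg5* and *Abcg8*, the esterifying enzymes *Soat1*, *Soat2* and *Lcat*, and the phospholipid enzyme *Lpcat3*. They were chosen by name and not by their values, though earlier results of these data were known. They are 10 of the 23352 gene symbols measured. RNA was measured in the livers of 18 male mice aged 20 weeks that were fed a high-fat diet (HFD), 9 wild-type (WT) and 9 *Gpr180*KO, with 1 library per mouse. *Gpr180*KO mice lack exon 6 of *Gpr180*, a G protein-coupled receptor gene, in the whole body, through a CRISPR/Cas9 deletion made in C57BL/6J eggs. The comparison asks how this route out of the free cholesterol pool differs between the genotypes on HFD. Values are FPKM, in which the fragments of a gene are divided by transcript length and by library size, so levels can be set side by side between genes.

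Liver X receptors are nuclear receptors that bind oxysterols and pair with retinoid X receptors on repeats of a short DNA half-site. Their known targets include the exporters that load cholesterol onto high-density lipoprotein (HDL) or pump it into bile. In the hepatocyte, free cholesterol that is not exported or made into bile acids can be esterified for storage or for lipoprotein secretion.

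The 6 hepatocyte markers, such as *Apoa2*, *Apob* and *Hnf4a*, summed to between 19724 and 45674 FPKM in every library. *Gpr180* itself lay between 4.46 and 9.24 FPKM in WT livers and between 0.88 and 1.99 FPKM in *Gpr180*KO livers, with no overlap. The sample titles come in 2 styles, called series 1, with 4 mice of each genotype, and series 2, with 5 of each, and the labels do not say what the styles stand for. Counts are absent, so depth was inferred from the most common FPKM ratio of low genes between each library and that of W317. In each library 6.5 to 13.7% of these genes lay at that ratio. Inferred in this way, depth relative to the deepest library was 60.8 to 100% in WT and 44.3 to 93.5% in *Gpr180*KO libraries. The library of *Gpr180*KO mouse KO51 stood apart: relative to short transcripts (under 2 kb), its long transcripts (over 6 kb) were lower by a median log2 of -1.58, against -0.07 to 0.22 in the other libraries.

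*Abcg5* and *Abcg8*, the half-transporters that pair to move sterols into bile, had the largest differences of the 10 genes. *Abcg5* rose to 1.74-fold of WT (95% confidence interval 1.31 to 2.31), and *Abcg8* stood at 1.76-fold (1.25 to 2.48) and just missed the threshold. *Abcg1*, *Soat1* and *Soat2* had lower means in *Gpr180*KO livers, at 0.73-, 0.69- and 0.72-fold, and also missed it. *Nr1h2*, *Nr1h3*, *Abca1*, *Lcat* and *Lpcat3* did not pass either. The test was limma on log2(FPKM + 0.1) over the 10835 genes with a mean of at least 1 FPKM, with Benjamini-Hochberg adjustment over all of them and a threshold of 0.05, and all 10 genes met that minimum. Of the 10 genes, 1 was called higher, where 0.452% of all genes were. None was called lower, where 4.28% of all genes were. At an unadjusted p under 0.05 limma had 3 of the 10 higher and 4 lower, where 22.2% of all genes reached that level in either direction. The median log2 difference was -0.09 over the 10 genes and -0.13 over all genes tested. Median-of-ratios scaling moved the median of all genes to 0.02 and split the calls into 147 lower and 146 higher genes, in place of 464 and 49.

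**Figure D1:**
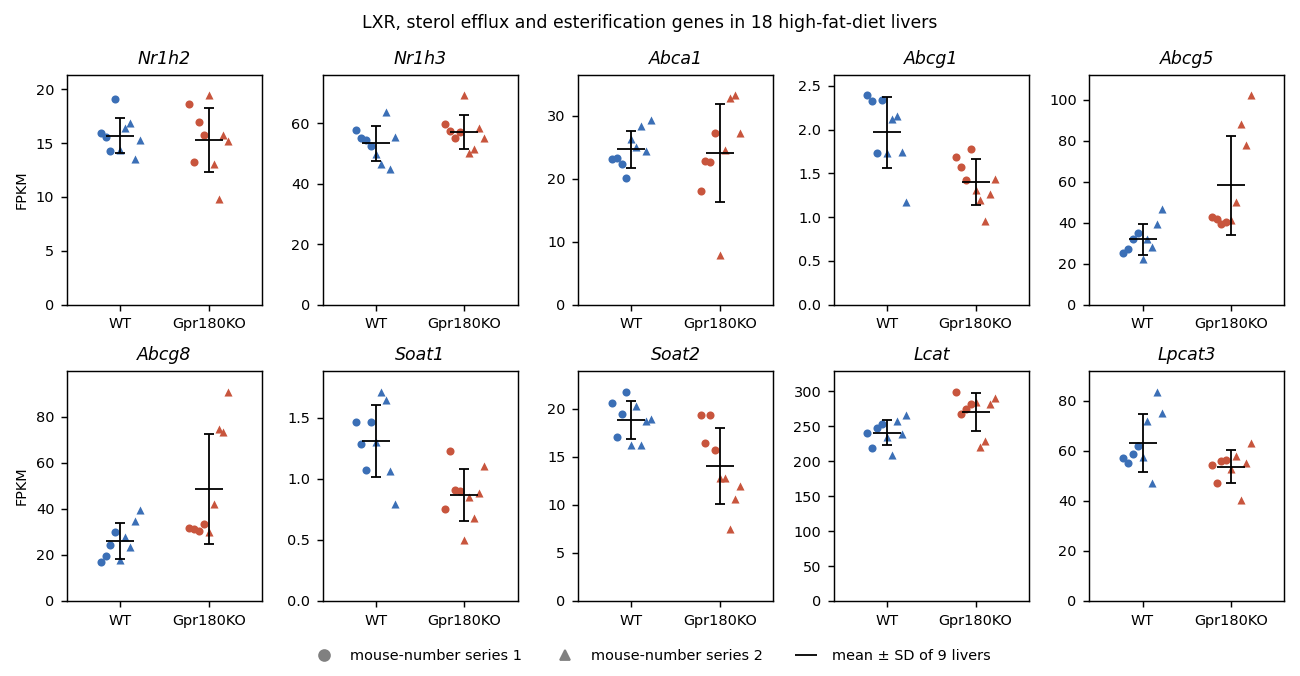
FPKM (linear axes from 0) of the 10 genes in each of the 18 livers, with WT in blue and *Gpr180*KO in red, circles for series 1, triangles for series 2, and bars for the mean ± SD of 9 livers. *Abcg5* and *Abcg8* spread up to 102 and 90.8 FPKM in *Gpr180*KO livers, and *Abca1* of KO51 lies alone at 7.84.

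*Abcg5* and *Abcg8* sit head to head on chromosome 17. The deposited tables place *Abcg5* at 84658233 to 84682923 and *Abcg8* at 84683130 to 84700333 (mm10, as listed), 207 bases apart. Their RefSeq starts, on the GRCm38.p6 build, are closer still, at 84683011 for *Abcg5* and 84683121 for *Abcg8*. The stretch of 109 bases between these starts lies directly before both of them, though within the span of an alternative *Abcg8* transcript that starts farther upstream. It is shown because the 2 genes moved together, and the capitals mark matches to AGATAA, the GATA-type motif, here read as TTATCT.
Abcg5-Abcg8, chr17:84683012-84683120, + strand, GRCm38.p6: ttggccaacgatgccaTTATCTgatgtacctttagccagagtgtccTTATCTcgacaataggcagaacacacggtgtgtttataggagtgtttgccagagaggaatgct
The 120 bases before the start of *Abca1*, an exporter known as a direct liver X receptor target, are also shown. Capitals mark the match to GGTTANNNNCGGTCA, a repeat with a spacer of 4 bases, here on the opposite strand.
Abca1, chr4:53159896-53160015, - strand, GRCm38.p6: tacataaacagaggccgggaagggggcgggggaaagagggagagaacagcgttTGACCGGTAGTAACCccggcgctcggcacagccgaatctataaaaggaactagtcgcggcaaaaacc

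In all, 7 motifs were searched on both strands of the 250 bases before the RefSeq start, in 10 windows of 8 of the genes. *Abcg1* and *Soat2* had no window. AGATAA was found in 9.99% of all 32851 windows, and among the 10 genes in those of *Abcg5*, *Abcg8* and *Lcat*. The windows of *Abcg5* and *Abcg8* overlap, so the matches in the stretch shown are counted for both and are not separate finds. The repeat of the *Abca1* type, which was taken from what is known of that gene, was in 0.0122% of windows, and its match lay at bases -67 to -53 of *Abca1*. The half-site AGGTCA (14.0% of windows), its repeat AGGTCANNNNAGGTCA (0.0152%, which overlaps the half-site by design), the HNF4-type CAAAGTCCA (0.384%) and the sterol element type TCACNCCAC (1.05%) had no match in any of the 10 windows. The E-box CACGTG (6.02%) matched only in *Abca1*, at bases -147 to -142, outside the stretch shown. A match describes the letters and not a site in use, and binding was not measured.

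The liver X receptors come first in the order of action. *Nr1h3*, which encodes LXRα, the main form in liver, ranged from 44.9 to 63.7 FPKM (median 54.3) in WT livers and from 50.3 to 69.2 (median 57.1) in *Gpr180*KO livers. *Nr1h2*, which encodes the widely expressed LXRβ, ranged from 13.5 to 19.1 FPKM (median 15.5) in WT livers and from 9.76 to 19.4 (median 15.7) in *Gpr180*KO livers. The ranges of both receptors overlapped nearly throughout. The log2 difference was 0.10 (95% interval -0.06 to 0.26) for *Nr1h3* and -0.05 (-0.29 to 0.18) for *Nr1h2*, with adjusted p = 0.442 and 0.785 in limma. Under median-of-ratios scaling *Nr1h3* moved to 0.25 (0.06 to 0.44, adjusted p = 0.137) and *Nr1h2* had the opposite sign, 0.10 (-0.14 to 0.33). The scaled *Nr1h3* value of KO51, 85.2 FPKM, was the highest of all livers. Without KO51 the log2 difference of *Nr1h3* was 0.19 (0.05 to 0.33) with that scaling and 0.07 with deposited values. There were 3.42 ± 0.38 FPKM of *Nr1h3* per FPKM of *Nr1h2* in WT livers and 3.83 ± 0.63 in *Gpr180*KO livers (SD, n = 9 each; two-sided exact permutation test, p = 0.113, adjusted over 4 ratios 0.451).

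Of the partners of these receptors, none of 8 genes tested passed the threshold in either direction. The role's median log2 difference was -0.11, close to the -0.13 of all genes. The most abundant were *Rxra*, the retinoid X receptor that pairs with them in hepatocytes, at 71.6 ± 9.4 FPKM in WT and 71.2 ± 11.4 in *Gpr180*KO livers, and *Ncor1*, a corepressor, at 16.3 ± 2.1 and 14.5 ± 3.8 (SD, n = 9 each). Both differences were far from the threshold (adjusted p = 0.942 and 0.461, limma). Genes that make or remove oxysterol ligands numbered 7, of which 5 could be tested, with a median log2 difference of 0.25. One enzyme of that role, *Cyp7b1*, which hydroxylates oxysterols and removes them toward bile acids, rose from 35.4 ± 10.2 to 65.7 ± 32.8 FPKM (log2 difference 0.81 ± 0.23 SE, adjusted p = 0.0464, limma). *Cyp27a1*, which makes 27-hydroxycholesterol, was the most abundant of the role, at 206 ± 34 FPKM in WT and 246 ± 42 in *Gpr180*KO livers, and did not pass (adjusted p = 0.19).

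*Abcg5* held 22.3 FPKM in the lowest, 31.7 in the median and 46.6 in the highest WT liver, against 39.2, 42.8 and 102 in *Gpr180*KO livers. All 9 *Gpr180*KO livers lay above the WT mean, and 4 lay above the highest WT liver. The log2 difference was 0.80 ± 0.20 (SE, adjusted p = 0.0293, limma), and scaling by median of ratios raised it to 0.95 (adjusted p = 0.0264). *Abcg8* held 16.9, 24.1 and 39.5 FPKM in the lowest, median and highest WT liver and 29.8, 33.6 and 90.8 in *Gpr180*KO livers. Again all 9 *Gpr180*KO livers were above the WT mean and 4 above the highest WT liver. Its log2 difference was 0.81 ± 0.24, equal in size to that of *Abcg5*, with adjusted p = 0.052. Under median-of-ratios scaling both half-transporters were called higher (*Abcg8* 0.97, adjusted p = 0.047), 2 of 10 genes where 1.35% of all genes were, and none was called lower where 1.36% were. One caution applies to the pair: RefSeq also has an *Abcg8* transcript that starts at 84676302, inside the listed *Abcg5* model on the opposite strand, and the strand of the libraries is not given, so reads of such a transcript could not be told apart from *Abcg5*.

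The mean of *Abcg5* was higher in *Gpr180*KO livers in both series, with unlike spreads. In series 1 the WT livers W317, W318, W319 and W320 held 25.2, 26.9, 31.7 and 35.0 FPKM, and the *Gpr180*KO livers KO319, KO320, KO321 and KO322 held 42.8, 42.0, 39.2 and 40.5. The genotypes did not overlap there, and the *Gpr180*KO values were packed closely, with an SD of 1.6 FPKM. In series 2 the WT livers W131, W133, W134, W156 and W157 held 22.3, 32.1, 28.2, 39.3 and 46.6 FPKM, and KO51, KO52, KO53, KO54 and KO56 held 41.4, 50.1, 88.0, 77.7 and 102. There KO51 overlapped the WT range and 3 of the 5 *Gpr180*KO livers exceeded 77 FPKM. With median-of-ratios scaling KO51 held 51.0 FPKM, above the highest series 2 WT liver (48.8), so the genotypes separated in series 2 as well. Such upward separation held for 2.9% of all genes. This rested on the scale of KO51, where transcripts under 2 kb lay above the 18-liver mean by a median log2 of 0.39 before scaling. The longest *Abcg5* transcript in GENCODE has 2351 bases, and the part of transcript length in this value was not tested. The ratio of means was 1.38 in series 1 and 2.13 in series 2. Series 1 alone passed the test (log2 0.48, adjusted p = 0.037) and series 2 alone, where limma called 0 of all genes and 2019 had an unadjusted p under 0.05, gave 1.06 (adjusted p = 0.118). The difference between the series did not pass for *Abcg5* (0.58 ± 0.33 SE, adjusted p = 0.718, limma interaction term). For *Abcg5* the adjusted p stayed under 0.05 in 13 of 18 fits that left out 1 library, and rose to between 0.0574 and 0.0663 without W317, W318, W133, KO53 or KO54. Without KO51 it was 0.0241.

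The 2 half-transporters were matched liver by liver. The ratio of *Abcg5* to *Abcg8* was 1.25 ± 0.12 in WT and 1.24 ± 0.11 in *Gpr180*KO livers (SD, n = 9 each), which is a log2 change of -0.01 (p = 0.83 in an exact permutation test, two-sided, over 48620 splits). After each genotype and series was centred on its own mean and values were scaled by median of ratios, *Abcg5* and *Abcg8* correlated over the 18 livers with Pearson r = 0.981 and Spearman rho = 0.988 (both p = 1e-05 by permutation within genotype and series, the smallest that 100000 permutations can give, and 3e-05 adjusted over 3 pairs). Without the 2 livers farthest from the median (W157 and KO51) r was 0.979. The other pairs computed, all chosen after their values were seen, had r = -0.134 (*Abcg5* and *Soat2*, rho = 0.0134) and r = 0.472 (*Abcg1* and *Soat1*, rho = 0.391), with permutation p = 0.734 and 0.0985 for r (adjusted 0.734 and 0.148) and 0.968 and 0.165 for rho. For the last pair r fell to 0.205 without W157 and KO53. The adjustment covers only the 3 pairs computed, and not the choice of these pairs from among the genes.

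**Figure D2:**
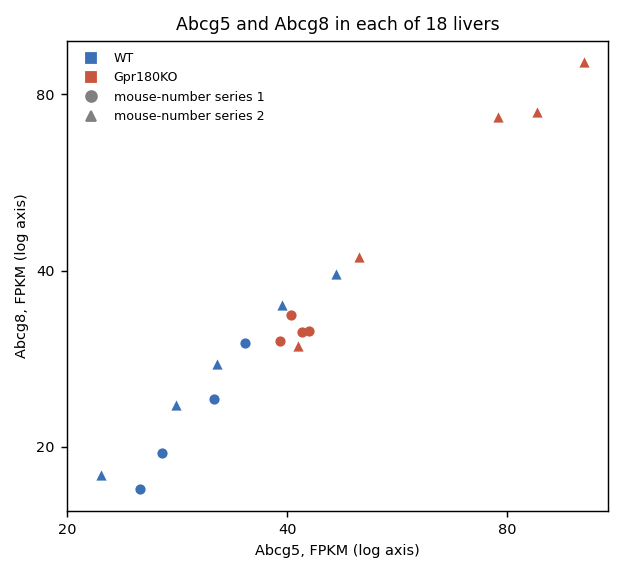
FPKM of *Abcg8* against *Abcg5* in each liver, both on log axes, with WT in blue, *Gpr180*KO in red, circles for series 1 and triangles for series 2. The 18 livers lie along 1 line, with KO53, KO54 and KO56 at the upper end, and the ratio of the genes is 1.25 in WT and 1.24 in *Gpr180*KO livers on average.

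The exporters to HDL behaved otherwise. *Abca1*, which passes cholesterol and phospholipid to lipid-poor apolipoprotein A-I, ranged from 20.1 to 29.3 FPKM (median 24.4) in WT livers and from 7.84 to 33.2 (median 24.6) in *Gpr180*KO livers. The medians were level, the *Gpr180*KO range enclosed the WT range, and the lowest value was that of KO51. The groups differed by a log2 of -0.13 (95% interval -0.54 to 0.29, adjusted p = 0.716, limma), 0.06 without KO51 and 0.02 with median-of-ratios scaling. The longest *Abca1* transcript in GENCODE has 10262 bases, the most of the 10 genes, and KO51 is the library whose long transcripts were low, though the part of transcript length in this value was not tested. No difference was detected for *Abca1*, within an interval from 0.69- to 1.22-fold. Any part of its upstream repeat printed above was not tested.

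*Abcg1*, which hands cholesterol to larger HDL particles and is known for its role in macrophages, was low throughout. It ranged from 1.17 to 2.39 FPKM (median 2.12) in WT and from 0.949 to 1.78 (median 1.42) in *Gpr180*KO livers. All 9 *Gpr180*KO livers lay below the WT mean, yet the groups overlapped, partly through WT mouse W157, which at 1.17 was the lowest WT liver. On the log2 scale it differed by -0.45 ± 0.14 (SE, adjusted p = 0.0687, limma), and -0.54 without W157 (adjusted p = 0.0142). A block for series made it a lower call (adjusted p = 0.0216), and with median-of-ratios scaling it was -0.31 (adjusted p = 0.167). The ratio of *Abca1* to *Abcg1* was 13.4 ± 4.9 in WT and 18.1 ± 8.5 in *Gpr180*KO livers (SD, n = 9 each; two-sided exact permutation test, p = 0.264, adjusted 0.528). The log2 difference of this ratio, 0.33, was 0.51 without KO51 (exact permutation test, unadjusted p = 0.0445) and 0.20 without KO53.

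Cells esterify cholesterol with 2 related enzymes. *Soat2* (ACAT2), the form of hepatocytes and intestine whose esters enter lipoproteins, ranged from 16.2 to 21.8 FPKM (median 18.9) in WT and from 7.46 to 19.3 (median 12.8) in *Gpr180*KO livers. Of the 9 *Gpr180*KO livers, 6 lay below the lowest WT liver. The log2 difference was -0.47 ± 0.15 (SE, adjusted p = 0.0669, limma), with a block for series -0.47 (adjusted p = 0.0161), and with median-of-ratios scaling -0.32 (adjusted p = 0.189). *Soat1* (ACAT1), the form of most other cells including macrophages, ranged from 0.789 to 1.71 FPKM (median 1.30) in WT and from 0.50 to 1.23 (median 0.88) in *Gpr180*KO livers. All 9 *Gpr180*KO livers were below the WT mean and 3 below the lowest WT liver, with KO51 lowest of all. The longest *Soat1* transcript in GENCODE has 8371 bases, in the class over 6 kb that was low in KO51. The part of transcript length in this value was not tested. The log2 difference of *Soat1* was -0.54 ± 0.17 (SE, adjusted p = 0.0642, limma), and -0.46 without KO51. There were 0.0702 ± 0.0178 FPKM of *Soat1* per FPKM of *Soat2* in WT livers and 0.0656 ± 0.0211 in *Gpr180*KO livers (SD, n = 9 each; two-sided exact permutation test, p = 0.703).

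For *Soat2* the 2 series were unlike in appearance. Series 1 held 17.1 to 21.8 FPKM in WT and 15.7 to 19.3 in *Gpr180*KO livers, which overlap. In series 2 the WT livers W131, W133, W134, W156 and W157 held 16.2, 20.3, 16.3, 18.8 and 18.9 FPKM, and KO51, KO52, KO53, KO54 and KO56 held 12.8, 12.8, 7.46, 10.6 and 11.99. Every series 2 *Gpr180*KO liver was thus below every series 2 WT liver, which was so for 5.5% of all genes and, among the 10, for *Soat2* alone. The separation rested on the scale of KO51, which with median-of-ratios scaling held 15.74 FPKM of *Soat2*, above W131 at 15.72 and W134 at 15.33. The log2 difference was -0.16 in series 1 and -0.72 in series 2, or -0.07 and -0.51 with that scaling. The difference between them, -0.56 ± 0.20 (SE), had an unadjusted p = 0.0112 and an adjusted p = 0.587 (limma interaction term). No gene of the 10835 passed that test, with or without median-of-ratios scaling, and 833 (723 with scaling) had an unadjusted p under 0.05. For the 10 genes the adjusted p of the interaction lay between 0.587 and 0.951.

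**Figure D3:**
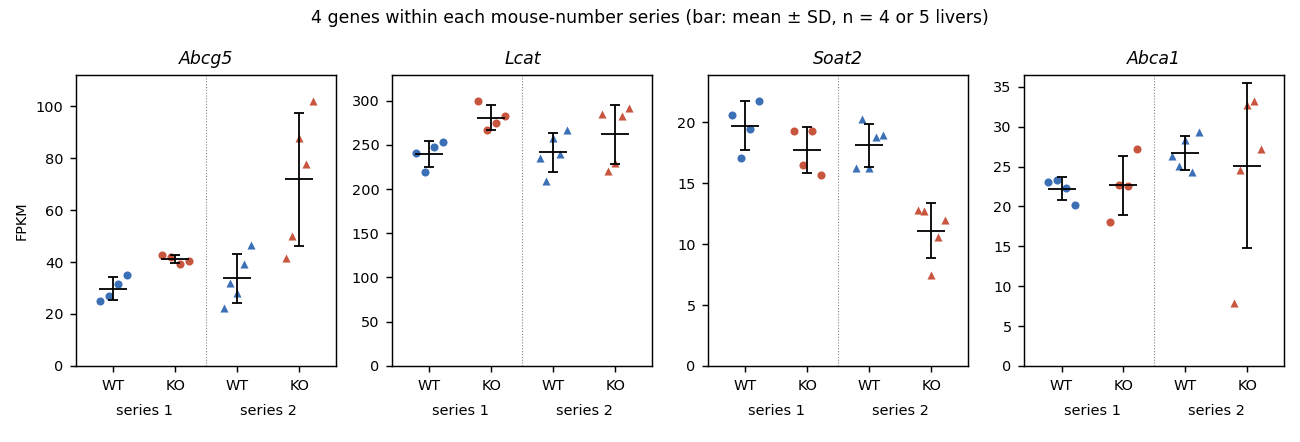
FPKM (linear axes from 0) of *Abcg5*, *Lcat*, *Soat2* and *Abca1* in WT and *Gpr180*KO (KO) livers of each series, with bars for mean ± SD over 4 livers in series 1 and 5 in series 2. *Abcg5* and *Lcat* separate in series 1 and overlap in series 2, and *Soat2* overlaps in series 1 and separates in series 2. With median-of-ratios scaling KO51 moves, and in series 2 *Abcg5* separates and *Soat2* overlaps.

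*Lcat*, the secreted enzyme that esterifies cholesterol on HDL, was the most abundant of the 10 genes. It ranged from 209 to 266 FPKM (median 240) in WT and from 220 to 299 (median 282) in *Gpr180*KO livers, where 7 of 9 livers lay above the highest WT liver. Its log2 difference was small, 0.16 ± 0.07 (SE, adjusted p = 0.198, limma), and under median-of-ratios scaling 0.32 ± 0.09 (adjusted p = 0.0545). In series 1 the *Gpr180*KO livers held 267 to 299 FPKM and the WT livers 219 to 253. *Lcat*, *Abcg5* and *Abcg8* were the 3 of the 10 genes for which every series 1 *Gpr180*KO liver was above every series 1 WT liver, which was so for 3.28% of all genes. *Lpcat3*, which places polyunsaturated chains into phospholipids and is a known liver X receptor target, ranged from 47.1 to 83.6 FPKM (median 58.8) in WT and from 40.4 to 63.3 (median 55.3) in *Gpr180*KO livers. Its groups overlapped, and its log2 difference of -0.22 (95% interval -0.44 to -0.00354, adjusted p = 0.217) shrank to -0.07 with median-of-ratios scaling.

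Fits that let the series have their own means gave more calls. With series as a block, *Abcg5* and *Abcg8* were called higher (2 of 10, where 1.13% of all genes were) and *Abcg1*, *Soat1* and *Soat2* lower (3 of 10, where 9.52% were). With median-of-ratios scaling added to the block, *Abcg5*, *Abcg8* and *Lcat* were called higher (3 of 10, where 2.81% were) and none lower (3.06% of all genes). In that fit *Abcg1*, *Soat1* and *Soat2* were lower with an unadjusted p from 0.0103 to 0.0118 (limma). Of the 10835 genes tested, 2304 had an unadjusted p under 0.05 there in either direction. The direction of *Abcg5*, *Abcg8*, *Lcat*, *Abcg1*, *Soat1* and *Soat2* was the same with deposited and with scaled values. The block could not change a direction, because each series holds as many WT as *Gpr180*KO mice and the estimate stays the same. The calls of all but *Abcg5* depended on which of the 4 fits was used. Single libraries also decided calls in the fit to the deposited values. *Abcg8* was called higher without KO319, KO321, KO51 or W157 (adjusted p = 0.0447, 0.0417, 0.0392 and 0.0270, limma), *Soat1* lower without KO320 or W157 (0.0436 and 0.0211), and *Soat2* lower without KO319 or KO321 (0.0364 and 0.0363).

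**Figure D4:**
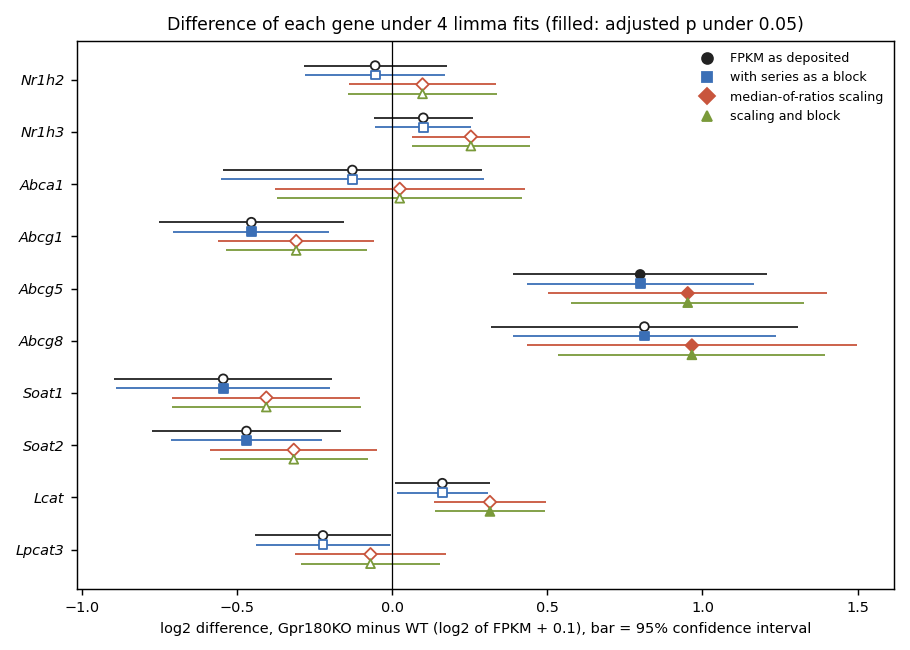
Log2 difference (*Gpr180*KO minus WT, log2 of FPKM + 0.1) of each gene with its 95% confidence interval in 4 limma fits: FPKM as deposited, series as a block, median-of-ratios scaling, and both. Filled symbols have an adjusted p under 0.05, which *Abcg5* has in all 4 fits, *Abcg8* in 3, and *Abcg1*, *Soat1*, *Soat2* and *Lcat* in 1 each.

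In level, averaged over both genotypes, the 10 genes spanned 235-fold, from *Lcat* at a mean of 256 FPKM over all livers to *Soat1* at 1.09. Between them came *Lpcat3* (58.5), *Nr1h3* (55.2), *Abcg5* (45.1), *Abcg8* (37.3), *Abca1* (24.4), *Soat2* (16.4), *Nr1h2* (15.5) and *Abcg1* (1.68 FPKM). The range of *Lcat* lay wholly above that of *Lpcat3*, and the range of *Nr1h2* wholly above that of *Abcg1*. All other neighbours overlapped over the 18 livers: *Lpcat3* exceeded *Nr1h3* in 9 livers and *Soat2* exceeded *Nr1h2* in 11, so these orders did not hold beyond the spread. The order of some means also changed with genotype. The mean of *Abcg5* was 31.9 FPKM in WT livers, below *Lpcat3* (63.2) and *Nr1h3* (53.3), and 58.2 in *Gpr180*KO livers, above both (53.7 and 57.1). Its median in *Gpr180*KO livers, 42.8 FPKM, stayed below the medians of both (55.3 and 57.1), as KO53, KO54 and KO56 raised its mean. The mean of *Soat2* was above that of *Nr1h2* in WT livers (18.8 and 15.7) and below it in *Gpr180*KO livers (14.0 and 15.3). *Abcg5* was nonetheless above *Abcg8*, and *Abcg1* above *Soat1*, within every one of the 18 livers.

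Other known targets of liver X receptors and the partners of the 10 genes were described from lists by role, 71 genes of which 61 could be tested. Of these, 4 rose and 7 fell, where 0.452% and 4.28% of all genes did, and 5 of the 7 were sterol synthesis genes. In the 14 other target genes, 13 were tested, and 1 rose and 1 fell. *Apoc1*, an apolipoprotein of HDL and very low-density lipoprotein, rose from 9860 ± 1276 to 13986 ± 3664 FPKM (SD, n = 9 each, adjusted p = 0.0357, limma), and all 9 *Gpr180*KO livers lay above the WT mean. *Smpdl3a*, a phosphodiesterase, fell from 35.0 ± 4.0 to 28.2 ± 2.4 FPKM (adjusted p = 0.0318), a call that was lost with median-of-ratios scaling (adjusted p = 0.206). *Srebf1*, the lipogenic regulator that liver X receptors are known to induce, stood at 69.3 ± 14.0 FPKM in WT and 86.3 ± 16 in *Gpr180*KO livers (adjusted p = 0.138), and was called higher with that scaling (adjusted p = 0.0459). *Apoe*, the most abundant of the role, held 15875 ± 1076 and 16920 ± 4157 FPKM and did not pass (adjusted p = 0.778). The role's median log2 difference was -0.30, and 8 of the 13 genes tested had a negative difference. Among these *Fasn*, fatty acid synthase, stood at 220 ± 74 FPKM in WT and 132 ± 61 in *Gpr180*KO livers (adjusted p = 0.106, limma). It was called lower with series as a block (adjusted p = 0.0219) and not with median-of-ratios scaling (adjusted p = 0.195).

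Among HDL partners, 2 of 8 genes rose and none fell, and the median log2 difference was 0.18. *Scarb1*, the receptor that takes up HDL cholesterol esters, rose from 59.4 ± 6.8 to 81.1 ± 7.2 FPKM (adjusted p = 0.00677, limma), and *Lipc*, hepatic lipase, rose from 68.9 ± 7.8 to 88.2 ± 11.7 FPKM (adjusted p = 0.0261; SD, n = 9 each). All 9 *Gpr180*KO livers were above the WT mean for both. The 2 most abundant genes of the role, the HDL apolipoproteins *Apoa2* and *Apoa1*, had means of 15234 and 7644 FPKM in WT and 17300 and 9150 in *Gpr180*KO livers and did not pass (adjusted p = 0.619 and 0.379). Their SDs in *Gpr180*KO livers, 6150 and 3238 FPKM, include KO51, where the summed HDL partners reached 52602 FPKM against at most 29775 in WT livers.

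On the side of ester hydrolysis and sterol transfer, 1 of 10 genes tested fell and none rose, with a median log2 difference of -0.13. *Nceh1*, a cholesterol ester hydrolase known from macrophages, fell from 14.0 ± 2.4 to 8.79 ± 2.86 FPKM (log2 difference -0.71 ± 0.16 SE, adjusted p = 0.0205, limma). *Stard5* and *Stard4*, sterol carriers of the cytosol, stood at 40.9 and 28.5 FPKM in WT and 37.2 and 23.0 in *Gpr180*KO livers (adjusted p = 0.383 and 0.335). *Lipa*, the lysosomal acid lipase, had a failed estimate in at least 1 library and was left out. No gene passed among 4 phospholipid acyltransferases tested (median -0.26), led by *Lclat1* and *Mboat7* at 14.6 and 13.5 FPKM in WT livers (adjusted p = 0.175 and 0.251). None passed among 7 related ABC transporters either (median -0.10), led by *Abcb11*, the bile salt export pump, and *Abcb4*, the phospholipid floppase of bile, at 128 and 109 FPKM (adjusted p = 0.192 and 0.581). With median-of-ratios scaling *Abcb11* was called higher (adjusted p = 0.047). For reference, 5 of 6 sterol synthesis and uptake genes fell, with a median log2 difference of -1.03, and they included the 2 most abundant, *Hmgcs1* and *Idi1* (-1.10 and -1.17).

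**Figure D5:**
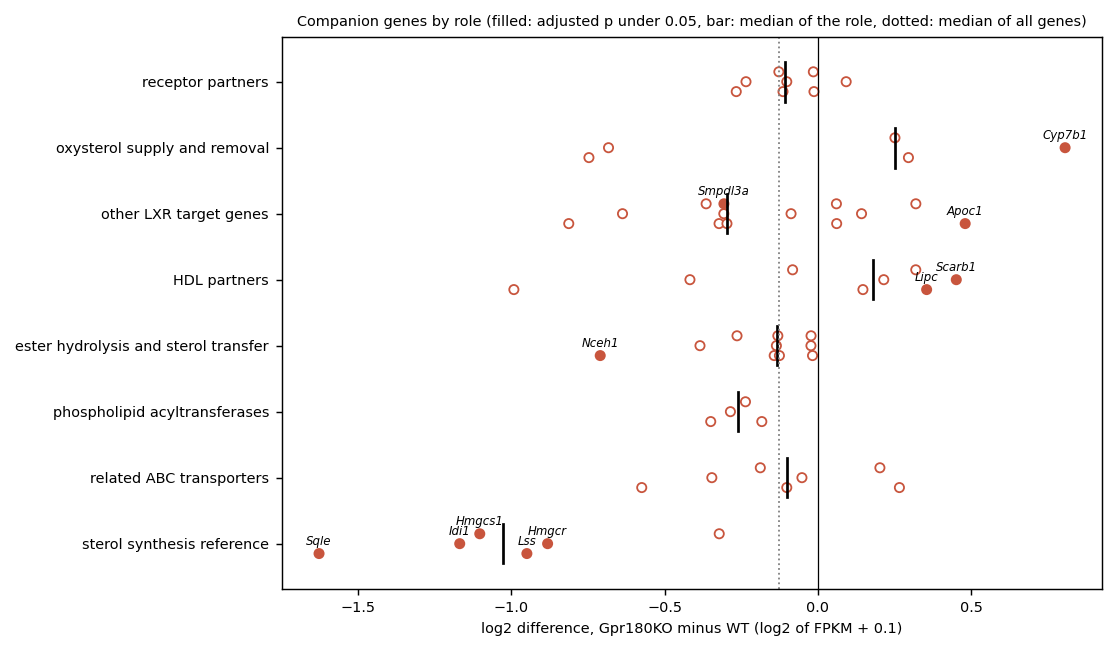
Log2 difference (*Gpr180*KO minus WT, log2 of FPKM + 0.1) of the 61 companion genes tested, by role. Filled points have an adjusted p under 0.05 and are named, short bars give the median of each role and the dotted line the median of all genes at -0.13. *Cyp7b1*, *Apoc1*, *Lipc* and *Scarb1* lie to the right, *Smpdl3a*, *Nceh1* and 5 sterol synthesis genes to the left.

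Macrophages are also known to express *Abcg1* and *Soat1*, and markers of macrophages and fibroblasts moved with genotype. In bulk liver, fewer cells of a type and less RNA per cell cannot be told apart. Of 5 lipid-associated macrophage markers tested, 4 fell (*Gpnmb*, *Trem2*, *Spp1* and *Mmp12*), and the summed level of that list was 49.5 to 254 FPKM in WT and 24.2 to 60.4 in *Gpr180*KO livers. After scaling by median of ratios 2 of these 5 passed, *Trem2* and *Spp1*, and the calls of *Gpnmb* and *Mmp12* were lost (adjusted p = 0.0561 and 0.0606, limma). Of 8 Kupffer cell and macrophage markers, *Cd68* fell and the other 7 did not pass. Their median log2 difference was -0.17, the mean of 6 of the 8 was below that of WT, and the summed level was 138 to 323 FPKM in WT and 160 to 226 in *Gpr180*KO livers. Stellate cell and fibroblast markers fell in 4 of 7 cases (*Col1a1*, *Col1a2*, *Col3a1* and *Dcn*), and the sums of that list were 141 to 283 FPKM in WT and 78.5 to 142 in *Gpr180*KO livers. *Dcn* alone made up most of these sums, with means of 144 FPKM in WT and 89.7 in *Gpr180*KO livers. No marker of these 3 lists was at 0 in any library. Of 6 hepatocyte markers *Serpina1c* rose and none fell, none of 5 endothelial markers passed, *Sox9* fell as the only cholangiocyte marker tested (lost with that scaling, adjusted p = 0.137), and the 4 lymphocyte markers were below the minimum level. Their part in the values of *Abcg1*, *Soat1* and the other genes was not tested.

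The genes whose pattern was most like each member were found from the Pearson correlation over 18 livers, after scaling by median of ratios and subtraction of each genotype's mean, among all genes tested. These are descriptions over livers that share library, depth and series. *Abcg5* and *Abcg8* had each other first (r = 0.986) and *Lepr*, the leptin receptor, second (r = 0.915 and 0.916). *Pcbp2* was the next for *Abcg5* (0.882) and *Rbbp9* for *Abcg8* (0.905). *Abca1* was closest to *Kdm6a*, *Fam135a* and *Otud4* (0.973, 0.973 and 0.969, and 0.939, 0.94 and 0.929 without KO51). *Soat2* was closest to *Gmppa*, *Cyp2c38* and *Agpat3* (0.92, 0.913 and 0.909).

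The lowest of these correlations were those of *Soat1*. It was closest to *AI607873*, *Fam49a* and *Filip1l* (0.816, 0.813 and 0.805), and *Abcg1* to *Maged2*, *Ppp1r18* and *Nupr1* (0.891, 0.874 and 0.86). *Lcat* was closest to *Os9*, *Btd* and *Atpaf2* (0.90, 0.884 and 0.874), and *Lpcat3* to *Mterfd3*, *Dbp*, a clock output gene, and *Gys2*, liver glycogen synthase (0.912, 0.907 and 0.905). *Nr1h3* was closest to *Irf3*, *Hagh* and *Vtn* (0.887, 0.873 and 0.873, and 0.765, 0.74 and 0.749 without KO51), and *Nr1h2* to *Cpn1*, *Zfpl1* and *Scamp3* (0.898, 0.889 and 0.887).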

How the data were processed

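Liver poly(A) RNA of 9 wild-type and 9 *Gpr180*KO mice was analysed, 1 library per mouse, with groups taken from the genotype label. For alignment of the reads to mm10 the authors used Illumina's TopHat application, and its output FPKM per gene were deposited. The gene annotation is not given in the sources used here. Rows sharing a symbol were summed, and 24 genes with failed estimates, all 190 of them listed at 0, were dropped. Counts are absent from these tables, so depth is relative and no counting interval was given. Genes with a mean of at least 1 FPKM were tested in R 4.3.3 by limma 3.58.1 (lmFit, eBayes with trend) on log2(FPKM + 0.1). Fold changes are on that scale, which understates low genes. Ratios were compared by two-sided exact permutation over all splits (Python, scipy 1.17.1), with Benjamini-Hochberg adjustment. The limma fit was tested on simulated data with independent normal values per gene and no series or library effect. Of 200 genes changed by a log2 of 1, 89.5% were recovered, and 2.72% of the calls were unchanged genes. That simulation does not cover a library such as KO51.

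The genes and lists were chosen with earlier results of these data known. Named genes are the 10 genes, *Gpr180*, in each role those past the threshold and the 2 with the highest mean FPKM, and the 3 genes most alike to each member. Others, such as *Srebf1*, *Fasn*, *Abcb11* under scaling and the markers named, were chosen once their values had been seen. Alternatives covered other pseudocounts, minimum levels, scalings, weights, series terms and left-out libraries. Upstream sequences came from RefSeq on GRCm38.p6, and transcript lengths from GENCODE on the same assembly, matched for 94.4% of the genes tested.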

Additional observations from a re-analysis of the deposited data

Results flagged for a closer look

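Of 28 groups of 9 livers checked for a sample far from the rest (10 genes and 4 ratios in each genotype), 2 held one, where chance gives about 1 in 20. *Abca1* of KO51 was 7.84 FPKM, with a gap to the next *Gpr180*KO liver of 0.577 of the group's log2 range. *Abcg1* of W157 was 1.17 FPKM, with a gap to the next WT liver of 0.541 of that range.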

How the results depend on the processing

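The comparison as reported called 0 of the 10 genes lower and 1 higher, 7 and 4 companion genes, and 464 and 49 of all genes. In brackets below are the calls among all genes tested, 14016 with a minimum of 0.1 FPKM and 10835 otherwise. Members called lower numbered 1 with a minimum of 0.1 FPKM (776) or with eBayes without trend (461). They numbered 2 with TPM (747) or library weights (1161) and 3 with the series block (1031). Members called higher numbered 2 with a minimum of 0.1 FPKM (61), median-of-ratios scaling (146) or the series block (122). They numbered 3 with scaling and block together (304) or library weights (170), and 0 in series 2 alone (0). The scaling was also run, chosen after seeing the data, in series 1 alone (2 higher), series 2 alone (0) and without KO51 (3). Companion genes called lower were 11 with library weights, 4 with scaling without KO51 and 0 in series 2 alone, scaled or not. Those called higher were 7 with scaling (alone, with the block, in series 1 alone and without KO51), 8 with library weights, 2 with no minimum and 0 in series 2 alone, scaled or not. All genes called lower were 776 with a minimum of 0.1 FPKM, 200 with 5 FPKM, 147 with median-of-ratios and 172 with 75th percentile scaling, 747 with TPM, 1031 with the block, 1161 with weights, 263 scaled without KO51 and 0 in series 2 alone. All genes called higher were 146 and 110 with those scalings, 122 with the block, 304 with scaling and block, 170 with weights, 90 in series 1 alone (203 scaled), 0 in series 2 alone and 269 scaled without KO51. With 1 library left out, members called lower ranged from 0 to 2 (2 without W157) and higher from 0 (without W317, W318, W133, KO53 or KO54) to 2, companion genes from 4 (without W133) to 8 and from 1 (without W317, W318 or W133) to 5, and all genes from 116 (without W133) to 844 (without W157) and from 16 (without W133) to 89 (without KO51). The cause of these changes was not tested.

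*Nr1h2* turned positive with median-of-ratios scaling (0.10, also with the block; 0.080 and 0.11 in series 1 and series 2 alone, 0.024 without KO51) and 75th percentile scaling (0.066), and ranged from -0.10 to 0.023 with 1 library left out. *Abca1* turned positive with that scaling (0.024, also with the block; 0.10 in series 1 alone, 0.19 without KO51), in series 1 unscaled (0.015) and with weights (0.052), and ranged from -0.20 to 0.060. The log2 ratio difference of *Abcg5* to *Abcg8* was 0.0063 in series 2 alone, and -0.035 to 0.018 with 1 library left out. That of *Soat1* to *Soat2* was 0.14 with a pseudocount of 1 and 0.10 in series 2 alone, and -0.16 to 0.0079 with 1 library left out. That of *Abca1* to *Abcg1* was 0.20 to 0.51 with 1 library left out. Without KO51 its unadjusted p was 0.0445 (exact permutation test), the only 1 of the 18 under 0.05. No paired analysis was possible because the replicate numbers do not tie mice together. Relative depth and 1 library per mouse limit what can be said of *Abcg1* and *Soat1*, which lie near the minimum level.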
